A study of Homo sapiens with 36 samples.

Results

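CoCl2 and a derivative of oxyquinoline (OD) were compared with each other in HT-29, a human colorectal adenocarcinoma line that grows as epithelium. The comparison took the 3 mRNA libraries of HT-29 cells that received CoCl2 at 300 µM for 24 h and the 3 of HT-29 cells that received OD at 5 µM for 24 h, so 6 of the 36 libraries of the series and 6 of its 18 mRNA libraries. Every gene of the count table was a member, 60591 in all, and 15812 of them passed the filter on low counts and were tested. The series also holds HT-29 control cells with 0.5 µl of dimethyl sulfoxide (DMSO) per ml of medium, the same 3 groups in Caco-2 cells differentiated for 21 days, and miRNA libraries. The 3 control libraries of HT-29 entered the filter, the scaling and the estimate of spread but not the contrast, and their levels are given as background.

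OD was added from a solution in DMSO, 0.5 µl per ml of medium, whereas CoCl2 came as a stock in water. The methods of the study, written for Caco-2, add DMSO to the CoCl2 medium too, so it is not settled whether the HT-29 groups differed in solvent. Each agent was given at 1 dose and 1 time, and the doses were not matched. OD is known here only by a supplier's code, and no structure is given for it. HT-29 is 1 cell line, and the labels call the replicates biological without saying that they came from separate cultures, so that p-values measure the spread between these libraries. The 6 libraries held 15614346 to 18919503 counts, which gave a median standard error (SE) of 0.093 for a log2 fold change. Epithelial markers were high, with EPCAM at 460.3 to 569 CPM (counts scaled to a common library total), CDH1 at 556 to 602 and KRT8 at 2185 to 3660.0, while VIL1 at 23.1 to 106 and CDX2 at 3.35 to 10.1 were lower. For these markers the plain library totals were used, so their levels are not on the scale of the later ones. The leukocyte gene PTPRC had 0 to 1 counts in any library and the fibroblast gene COL3A1 had 0 to 3, PECAM1 of endothelium reached 1.27 CPM and COL1A1 6.69 CPM.

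Hypoxia-inducible factor (HIF) is a transcription factor whose alpha subunit is hydroxylated by the EGLN prolyl hydroxylases, then bound by the VHL ubiquitin ligase and broken down in the proteasome. The hydroxylases need iron, oxygen and 2-oxoglutarate. Cobalt ions displace the iron, OD was chosen by the study as a blocker of the active centre, and either way HIF builds up at normal oxygen and switches on genes of glycolysis, pH control and blood vessel growth. Cobalt is also a heavy metal. Metals release MTF1, which drives the metallothioneins, damaged proteins release HSF1, which drives the chaperones, and oxidants release NRF2, which drives glutathione and thioredoxin enzymes. The contrast asks in which of these systems the agents left different mRNA levels.

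A gene was called when its false discovery rate (FDR) in the edgeR quasi-likelihood test was under 0.05 and its log2 fold change, CoCl2 minus OD, was above 1 or below -1. By this rule 4734 of the 15812 genes tested differed, or 29.9%, with 1702 higher with CoCl2 (10.8%) and 3032 lower (19.2%). At the FDR alone 12286 genes passed. The CPM of the groups did not overlap at 12480 genes (78.9%), so that separation of the libraries was the usual state of a gene here and size is the more useful guide. Fold changes beyond 2 on the log2 scale were seen in 350 higher and 989 lower genes. In bulk RNA, fewer cells that carry a transcript and less of it per cell cannot be told apart.

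The excess of lower genes lay at low counts. Among the 10092 genes with a mean of at least 100 counts over the 6 libraries, 1081 were higher (10.7%) and 1027 lower (10.2%), with a median log2 fold change of 0.11. Among the 5720 genes under 100 counts, 621 were higher (10.9%) and 2005 lower (35.1%), and the median was -0.58. In 440 called genes one group had no library above 3 counts, of which 419 were lower with CoCl2. The fold changes of such genes depend on the prior count and none is quoted for them. The split also depended on scaling. The trimmed-mean (TMM) factors were 0.765 to 0.774 for the CoCl2 libraries against 1.07 to 1.10 for OD, and with library size alone the median over all genes moved from -0.07 to -0.56 and the calls became 783 higher and 5279 lower. The shift was -0.50 to -0.48 at each named gene and ended the call at 22 of the 128 named genes that were called, all of them higher with CoCl2 by 1.02 to 1.48 on the log2 scale, such as VEGFA, CA9, FTH1, MUC13, MTF1 and PSMA3. The same shift gave a call to 20 named genes that had none. All of these were lower with CoCl2, by 0.51 to 0.98 before the shift, such as MYC, CDK1, VHL and PHGDH. With limma-trend on the log2 values that the authors deposited, which leave out low genes and add 1 before the log, the calls were 769 higher and 686 lower.

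**Figure D1:**
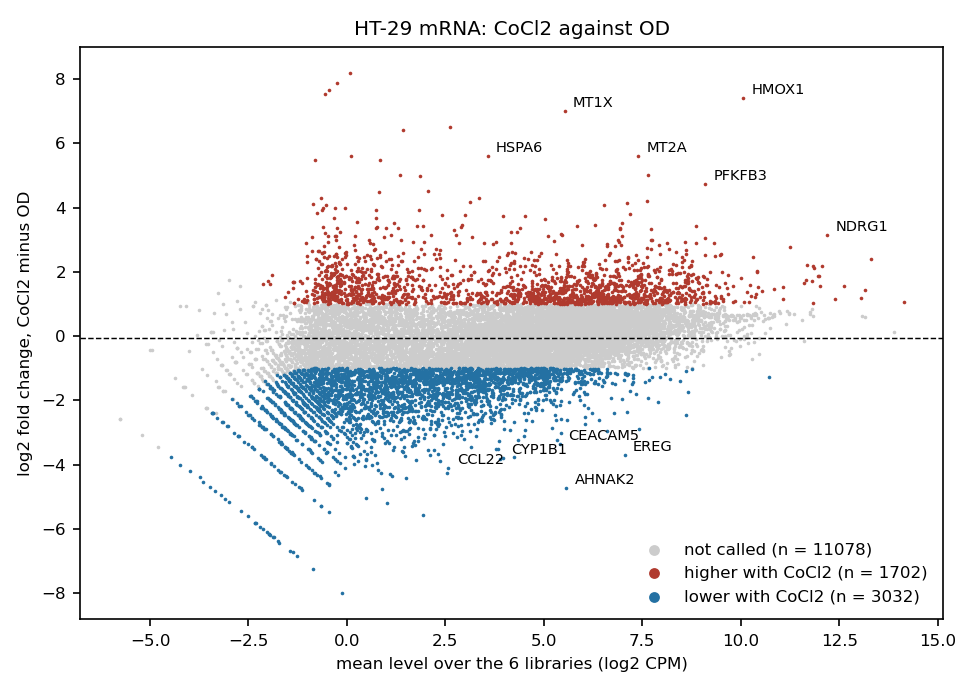
Log2 fold change (CoCl2 minus OD, vertical axis) against the mean level over the 6 HT-29 libraries (log2 CPM, horizontal axis), 1 point a gene, for the 15812 genes tested. Red points are the 1702 genes called higher with CoCl2, blue points the 3032 called lower, grey points the rest, and the dashed line is the median of -0.07. The blue points crowd at the left, at low levels, and HMOX1 stands at the upper right.

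**Figure D2:**
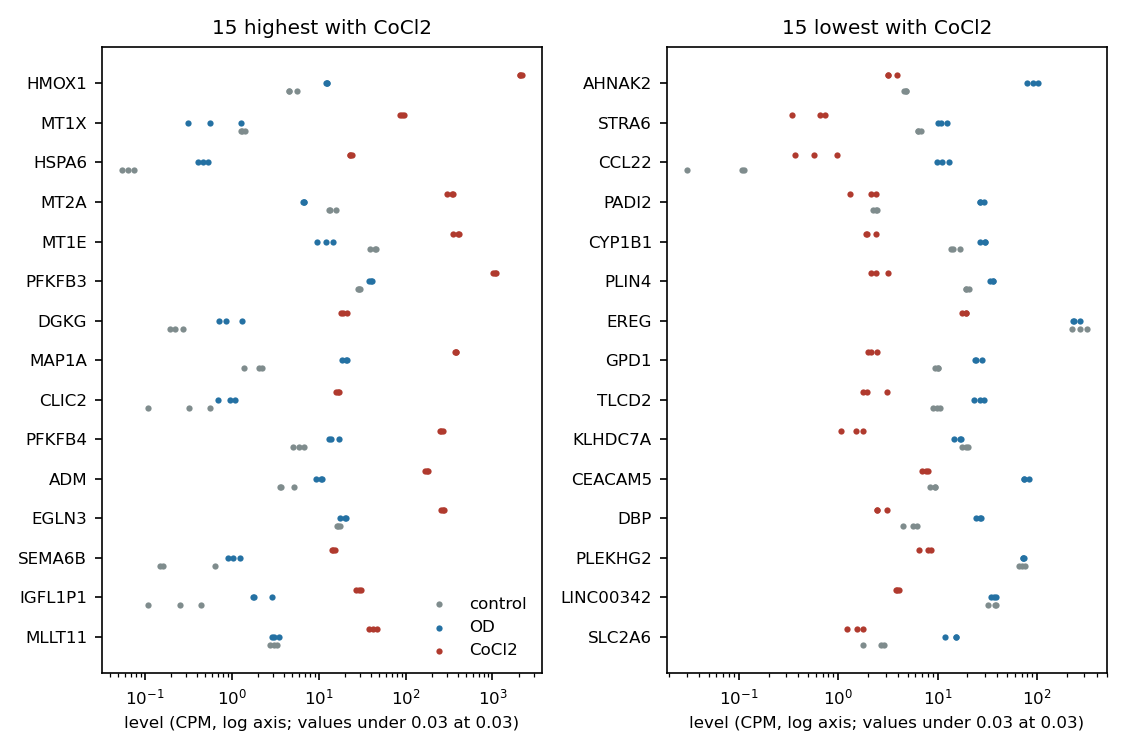
Level in each of the 9 HT-29 libraries (CPM on TMM-scaled library sizes, log axis) for the 15 highest and the 15 lowest called genes with at least 100 counts on average and no overlap between CoCl2 and OD. Each point is 1 of 3 libraries of a group. The CoCl2 points lie clear of the OD points because the genes were chosen so. The control points lie near OD for some genes, such as PLEKHG2, and near CoCl2 for others, such as CEACAM5.

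The largest difference of a well-counted gene was at HMOX1, heme oxygenase 1, which opens the heme ring and releases iron, carbon monoxide and biliverdin. HMOX1 (chr22:35380361-35394214, plus strand) stood at 2199, 2076 and 2065 CPM in the CoCl2 libraries and at 12.6, 12.3 and 12.5 CPM in the OD libraries, with 5.62, 4.59 and 4.54 CPM in the controls. The log2 fold change was 7.41, SE 0.064, FDR 2.21e-32, a 169.8-fold higher level with CoCl2. The replicates of each group lay close together and the groups were far apart. Metallothioneins, small cysteine-rich proteins that bind zinc, copper and other metals, also had large differences, with MT1X second to HMOX1. All 5 that were tested, of 9 listed, were called higher with CoCl2, and the other 4, MT1A, MT1B, MT1H and MT1M, fell under the count filter. Their summed level was 852, 874 and 753 CPM with CoCl2 and 17.7, 23.9 and 20.1 CPM with OD.

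MT2A (chr16:56608584-56609497, plus strand) stood at 339.8, 347 and 299 CPM with CoCl2, 6.78, 6.69 and 6.81 CPM with OD and 13.2, 13.6 and 16.1 CPM in the controls, a log2 fold change of 5.60, SE 0.080, FDR 3.16e-27. MT1X (chr16:56682470-56684196, plus strand) stood at 91.0, 96.5 and 87.5 CPM with CoCl2 and 0.569, 1.28 and 0.319 CPM with OD (7.01, SE 0.14, FDR 1.08e-24). MT1E (chr16:56625475-56627112, plus strand) stood at 405, 414 and 349.6 CPM against 9.73, 14.6 and 12.2 CPM (5.01, SE 0.092, FDR 3.73e-25). In each of these 3 genes the lowest CoCl2 library lay far above the highest OD library, and the OD libraries lay below the controls. MT1F had the smallest log2 fold change of the family, 2.60. These genes are close copies of one another, and the way the counting shared reads between them is not stated, so the single values are less certain than the sum.

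The metallothionein promoters are shown because the metal response element through which MTF1 acts was read from their sequence. The 250 bases before the start were taken from the RefSeq promoter table on GRCh38.p14, and capitals mark TGCACNC or TGCGCNC on either strand. MT2A at chr16:56608334-56608583 (plus strand) held 7 matches and MT1X at chr16:56682220-56682469 (plus strand) held 4.
MT2A: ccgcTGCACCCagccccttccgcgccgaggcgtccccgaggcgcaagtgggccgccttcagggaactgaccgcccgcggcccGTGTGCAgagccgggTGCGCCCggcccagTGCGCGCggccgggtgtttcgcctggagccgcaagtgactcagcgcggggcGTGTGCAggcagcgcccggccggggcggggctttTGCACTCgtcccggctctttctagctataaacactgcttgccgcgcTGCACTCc
MT1X: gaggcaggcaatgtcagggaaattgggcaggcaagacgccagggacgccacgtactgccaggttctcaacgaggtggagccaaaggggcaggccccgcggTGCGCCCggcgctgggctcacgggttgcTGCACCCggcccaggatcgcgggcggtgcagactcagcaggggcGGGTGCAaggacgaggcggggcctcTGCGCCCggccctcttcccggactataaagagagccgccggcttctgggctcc
The same letters were found in 24.8% of all 35116 promoters of the table and in 32.8% of the 10718 of genes tested, against 33.1% of the 1035 promoters of genes called higher and 30.4% of the 1841 of genes called lower, so a single match is common and the called genes lay near the tested ones. MT1E and HMOX1 have no entry in this table.

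The other genes of metal and iron handling were mixed. Of 20 tested zinc transporters and MTF1, 3 were higher and 3 lower, with a list median of -0.33 (2 higher and 8 lower with library size alone). The higher ones were SLC30A6, SLC30A1 and MTF1. SLC30A1, the exporter of zinc from the cell and a target of MTF1, stood at 143, 172 and 144 CPM with CoCl2 and 48.1, 52.7 and 49.7 CPM with OD, a log2 fold change of 1.61. MTF1 itself differed by 1.12 on the log2 scale and SLC30A6 by 1.86. The importer SLC39A10 was lower, at 13.1, 15.5 and 13.7 CPM against 61.5, 56.0 and 59.1 CPM and a log2 fold change of -2.06. Of 19 iron and heme genes 6 were higher and 3 lower, and their median of 0.18 turned to -0.32 with library size alone, when 3 were higher and 4 lower. FTH1, the heavy chain of the iron store ferritin, was higher at 2151 ± 171 CPM against 812 ± 71.0 CPM (mean ± SD, n = 3 each; log2 fold change 1.41). TFRC, which imports iron bound to transferrin, and SLC40A1, which exports it, had log2 fold changes of 0.18 and 0.14 and were not called. The lowest member was STEAP3, a ferric reductase, at -1.63.

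Genes of the HIF response were mostly higher with CoCl2 than with OD. Of 9 hypoxia core genes 7 were called higher and none lower, with a median log2 fold change of 1.93 against -0.07 over all genes tested. NDRG1, a stress-responsive gene widely used as a hypoxia marker, had the largest difference of this list, at 8474, 8363 and 8253 CPM with CoCl2, 1119, 793 and 915 CPM with OD and 129, 145 and 125 CPM in the controls (3.15, SE 0.078, FDR 1.54e-22). Both agents thus left it above the controls, with log2 fold changes against control of 5.97 for CoCl2 and 2.82 for OD, 2 values that share the control libraries. PDK1, the kinase that shuts pyruvate out of the mitochondrion, was at 376, 392 and 373 CPM against 54.7, 44.7 and 44.8 CPM, a log2 fold change of 2.98, and here OD stood level with the controls at 49.9 ± 2.01 CPM (mean ± SD, n = 3). ANKRD37, a small ankyrin protein gene, differed by 2.92. BNIP3, a receptor of mitophagy, was the exception with a log2 fold change of -0.51, from 4.03, 3.53 and 3.70 CPM with CoCl2 and 6.0, 5.53 and 4.47 CPM with OD, and was not called.

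The sugar pathway showed the same direction. Of 20 genes of glucose uptake and glycolysis 16 were higher and none lower, with a median of 1.86 (1.36 with library size alone, when 13 were higher and 1 lower). PFKFB3, which makes the activator of phosphofructokinase, stood at 1105, 1006 and 1069 CPM with CoCl2, 41.7, 37.6 and 39.8 CPM with OD and 28.2, 29.9 and 29.1 CPM in the controls (4.74, SE 0.056, FDR 4.89e-29). PFKFB4, its relative, was at 272, 249.9 and 258 CPM against 17.3, 13.8 and 13.3 CPM, a log2 fold change of 4.13. HK2, the hexokinase that traps glucose in the cell, was at 869.7, 865 and 838 CPM against 87.8, 73.7 and 79.2 CPM, a log2 fold change of 3.42. These 3 regulatory enzymes had larger differences than the other listed enzymes of the pathway. The glucose carrier SLC2A1 differed by 2.76, LDHA, which turns pyruvate into lactate, by 2.17, and PGK1 by 1.71. SLC2A3, another glucose carrier, was lowest at -0.77 and was not called, with levels of 5.60, 0.691 and 1.65 CPM with CoCl2 and 7.24, 2.56 and 3.51 CPM with OD; without replicate 1 of CoCl2 its value was -1.98 and it was called. In glycogen metabolism 3 of 10 genes were higher and none lower (1 and 2 with library size alone). GBE1, the branching enzyme, had 108, 109.5 and 115 CPM against 17.7, 14.7 and 14.2 CPM (2.83, SE 0.069, FDR 1.12e-22), GYS1, the synthase, differed by 1.05, and GYG1 at the low end by -0.61.

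Among 11 genes of blood vessel growth and pH control 7 were higher and none lower, with a median of 1.24. ADM, the vasodilator peptide adrenomedullin, stood at 174, 169 and 180.3 CPM with CoCl2 and 10.9, 9.25 and 10.8 CPM with OD (4.08, SE 0.071, FDR 1.72e-25). VEGFA, the main growth factor of blood vessels, showed a small difference, 1640.0, 1604 and 1555 CPM against 799, 725 and 771 CPM and a log2 fold change of 1.06, and was called only just. CA9, a carbonic anhydrase of the cell surface, had 282, 259 and 262 CPM against 117, 109 and 115 CPM (1.23), and ANGPTL4 differed by 2.69. Both VEGFA and CA9 lay above the controls with either agent, at 439 ± 31.5 and 46.8 ± 2.37 CPM there. SLC4A4, a bicarbonate carrier, was at the low end with -0.44.

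The oxygen sensors themselves differed. EGLN3, a HIF hydroxylase that is itself a HIF target, stood at 270.1, 259 and 279.9 CPM with CoCl2, 20.4, 17.5 and 20.2 CPM with OD and 16.3, 17.7 and 16.8 CPM in the controls (3.79, SE 0.061, FDR 3.85e-26). EGLN1, the main sensor, was at 54.3, 48.6 and 53.3 CPM against 8.90, 7.91 and 8.94 CPM, a log2 fold change of 2.60. The other 6 tested genes of the list were not called. HIF1A had a log2 fold change of 0.75, EPAS1, which encodes HIF-2α, of -0.037, and VHL of -0.51. Of 18 Jumonji demethylases, enzymes of the same iron and 2-oxoglutarate family that act on histones, 11 were higher and none lower, with a median of 1.22 (0.72 with library size alone, when 5 were higher and 1 lower). KDM3A, a known HIF target, had 1095, 1149 and 1143 CPM against 164, 143 and 146 CPM (2.90), KDM4B differed by 1.80, and PHF2 lay lowest at -0.78. In collagen hydroxylation and crosslinking 4 of 13 genes were higher and 2 lower, with PLOD2, a lysyl hydroxylase, at 2.56 and LOXL4, a lysyl oxidase, at -2.68.

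The core of the hypoxia response element, ACGTG or GCGTG on either strand, is marked in capitals in 3 promoters of genes higher with CoCl2, shown as examples with different numbers of matches. They are CA9 at chr9:35673678-35673927 with 1 match, ADM at chr11:10304823-10305072 with 1 and ANKRD37 at chr4:185396591-185396840 with 3, of which a pair lies on the 2 strands of 1 palindrome; each gene is on the plus strand.
CA9: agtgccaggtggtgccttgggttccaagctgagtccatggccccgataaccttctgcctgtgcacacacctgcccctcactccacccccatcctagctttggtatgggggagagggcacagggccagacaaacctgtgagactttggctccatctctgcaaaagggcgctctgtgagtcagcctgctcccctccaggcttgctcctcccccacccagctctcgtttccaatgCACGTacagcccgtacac
ADM: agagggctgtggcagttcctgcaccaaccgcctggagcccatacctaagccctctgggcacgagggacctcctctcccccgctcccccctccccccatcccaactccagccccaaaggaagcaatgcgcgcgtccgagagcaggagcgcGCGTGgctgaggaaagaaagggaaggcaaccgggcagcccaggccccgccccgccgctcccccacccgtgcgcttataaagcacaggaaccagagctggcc
ANKRD37: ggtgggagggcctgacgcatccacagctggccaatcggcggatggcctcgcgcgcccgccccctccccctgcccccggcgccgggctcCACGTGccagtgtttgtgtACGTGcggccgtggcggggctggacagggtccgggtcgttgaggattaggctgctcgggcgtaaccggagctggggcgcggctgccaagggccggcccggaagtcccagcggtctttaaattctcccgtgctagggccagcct
In CA9 the match lies 18 bases before the start. The core is short and was found in 43.2% of all promoters of the table and in 56.4% of those of genes tested, against 57.3% of those of genes called higher and 51.1% of those of genes called lower. It was present in 7 of the 8 hypoxia core genes with a promoter in the table and in 11 of 19 genes of glucose uptake and glycolysis (57.9%), a share near that of the genes tested.

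**Figure D3:**
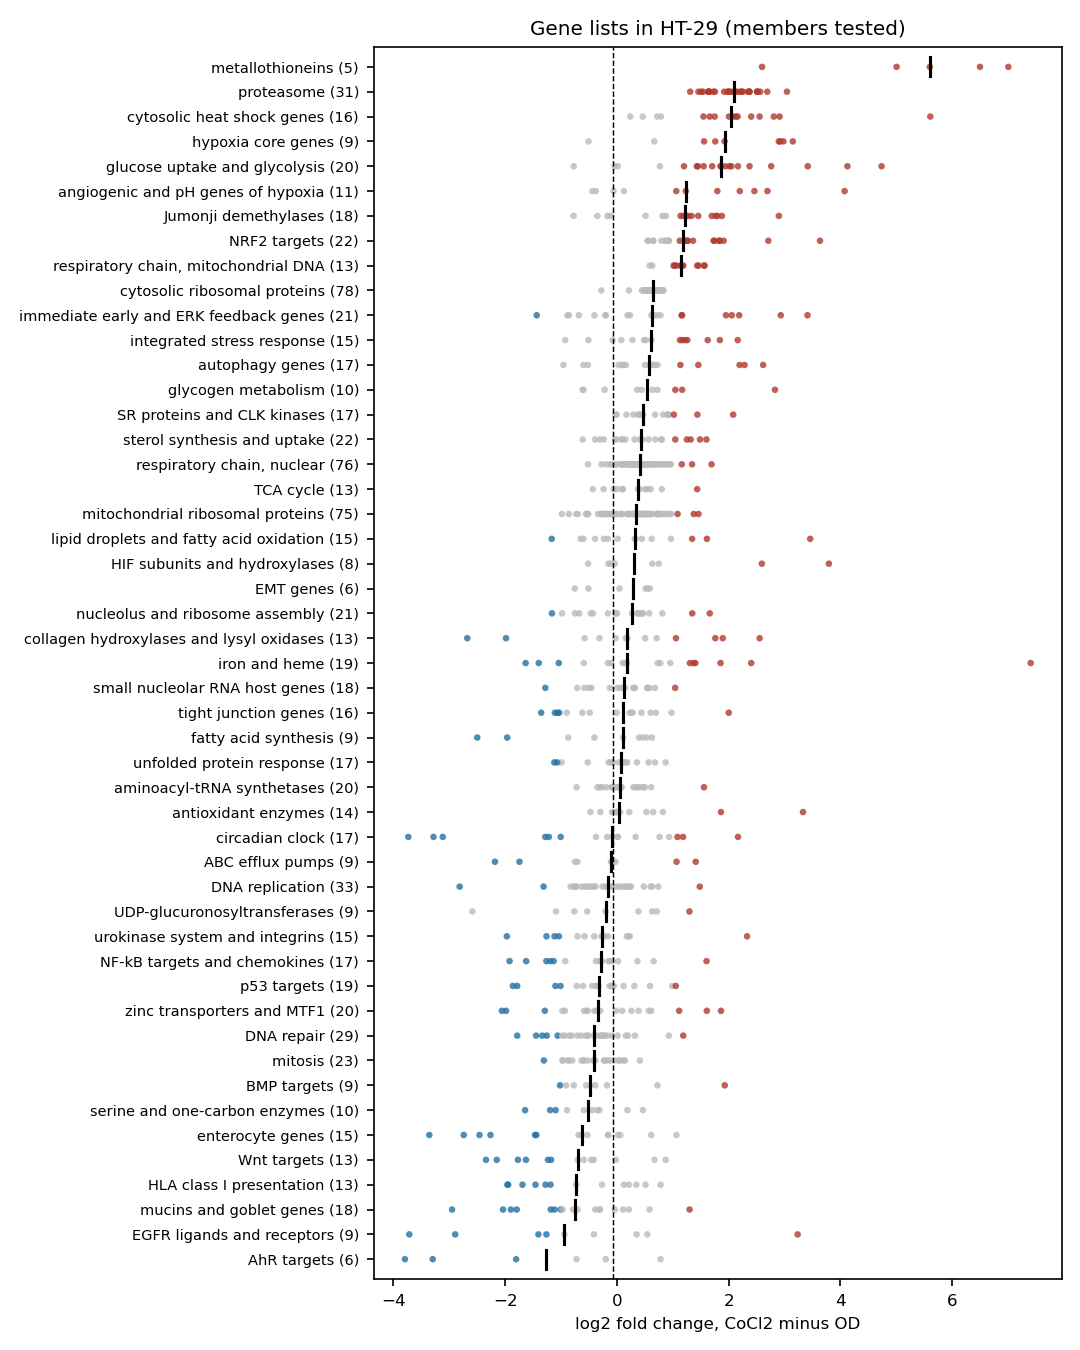
Log2 fold change (CoCl2 minus OD) of the tested members of 49 gene lists, 1 point a gene, with the number tested in parentheses. Red points were called higher with CoCl2, blue lower, grey not called, the black bar is the median of a list and the dashed line the median of all genes, -0.07. Metallothioneins, proteasome, heat shock, hypoxia core and glycolysis lists stand at the top, and the AhR and EGFR lists at the bottom.

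Most proteasome and cytosolic heat shock genes were called higher with CoCl2. All 31 proteasome subunits tested were called higher with CoCl2, against 10.8% of all genes. In none of them did the groups overlap, which was also so for 78.9% of all genes tested. Their median log2 fold change was 2.1, from 1.31 at PSMA3 to 3.05 at PSMC4, and with library size alone it was 1.60 and 29 were higher. The summed level of the 31 genes was 15785, 16101 and 15761 CPM with CoCl2 and 3738, 3613 and 3698 CPM with OD. PSMC4, an ATPase of the regulatory cap, stood at 964, 984 and 953 CPM with CoCl2, 114, 113 and 124 CPM with OD and 103, 105 and 105 CPM in the controls (3.05, SE 0.049, FDR 3.85e-26). PSMA3, a subunit of the outer ring of the core, stood at 203, 206 and 206 CPM against 78.3, 84.7 and 84.4 CPM (1.31, SE 0.050, FDR 1.77e-18). Against the controls the 31 genes had log2 fold changes of 1.62 to 3.21 (median 2.24) with CoCl2 and of -0.43 to 1.03 (median 0.16) with OD, values that share the control libraries.

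Of 16 cytosolic heat shock genes 12 were higher and none lower, with a median of 2.04. HSPA6, an inducible HSP70 that resting cells barely express, had 22.7, 24.5 and 22.7 CPM with CoCl2, 0.466, 0.407 and 0.532 CPM with OD and 0.0645, 0.0547 and 0.0751 CPM in the controls, a log2 fold change of 5.61, SE 0.16, FDR 2.30e-21. HSPA1A, the main inducible HSP70, stood at 212, 219 and 202 CPM against 29.2, 25.8 and 29.0 CPM (2.91, SE 0.066, FDR 2.15e-23). It is a near copy of HSPA1B, and the counting may have divided reads between them. The nucleotide exchange factor HSPH1 differed by 2.56, its partner DNAJB1 by 2.16 and BAG3, which hands clients to autophagy, by 2.08. HSF1, the regulator of these genes, had a log2 fold change of 0.24 and was not called.

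The heat shock element was read as GAANNTTC or TTCNNGAA, and both forms are palindromes that match on each strand at once. HSPA6 at chr1:161524290-161524539 (plus strand) is shown as the most changed member, with 3 matches in capitals, a pair of which overlap.
HSPA6: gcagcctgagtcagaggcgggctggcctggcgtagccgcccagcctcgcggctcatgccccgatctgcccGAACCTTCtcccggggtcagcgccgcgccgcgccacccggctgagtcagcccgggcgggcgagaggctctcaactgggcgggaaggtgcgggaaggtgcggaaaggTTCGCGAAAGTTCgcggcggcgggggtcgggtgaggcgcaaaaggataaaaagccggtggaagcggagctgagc
Of 15 heat shock genes with a promoter in the table the element was held by 8, against 11.6% of all promoters, 8.61% of those of genes tested and 1 of 26 promoters of proteasome genes.

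**Figure D4:**
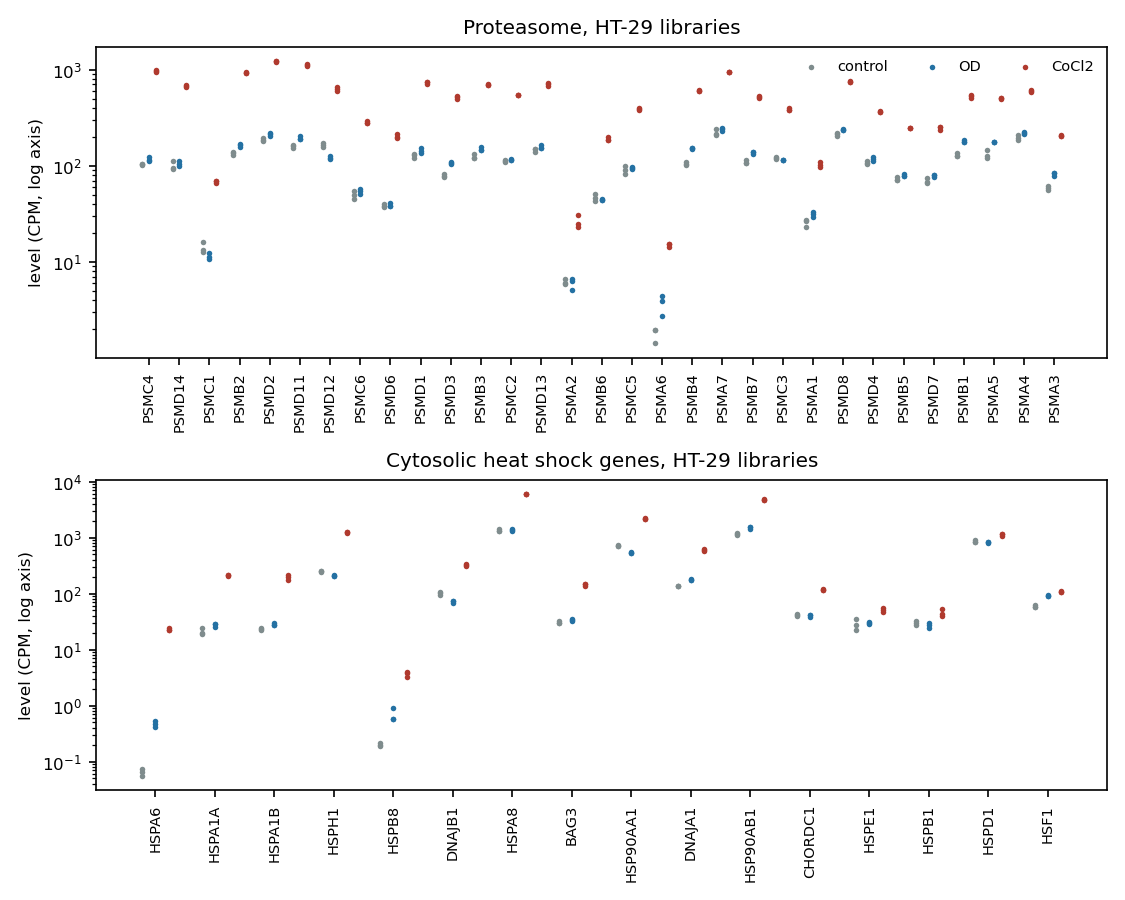
Level in each of the 9 HT-29 libraries (CPM, log axis) of the 31 tested proteasome genes (upper panel) and the 16 tested cytosolic heat shock genes (lower panel), ordered by log2 fold change; each point is 1 of 3 libraries of a group. The red CoCl2 points lie above the blue OD points at each of the 31 proteasome genes, and the OD points lie near the grey controls at most of them.

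Of 22 NRF2 targets 12 were higher and none lower, and all 22 had a positive log2 fold change, with a median of 1.18 (0.68 with library size alone, when 7 were higher). ABCC2, an export pump of conjugated compounds, stood at 58.1, 61.3 and 61.6 CPM with CoCl2, 5.28, 4.66 and 4.58 CPM with OD and 1.68, 0.328 and 0.976 CPM in the controls (3.64, SE 0.11, FDR 1.78e-20). GCLM, a subunit of the enzyme that starts glutathione synthesis, differed by 2.71, the cystine carrier SLC7A11 by 1.84 and the thioredoxin reductase TXNRD1 by 1.73. TXNRD1 stood at 4999, 4909.7 and 4853 CPM with CoCl2, 1621, 1401 and 1425 CPM with OD and 337, 372 and 450.0 CPM in the controls, so OD also lay above control there. NQO1, a quinone reductase, and AKR1C1, an aldo-keto reductase with close copies, had log2 fold changes of 0.93 and 0.56 and were not called. EPHX1 was lowest at 0.55. Of 14 other antioxidant enzymes 2 were higher and none lower, among them GPX3, a secreted glutathione peroxidase, at 404, 379.7 and 370.5 CPM against 39.6, 35.2 and 39.6 CPM (3.33, SE 0.057, FDR 9.86e-26). CAT at -0.012, SOD2 at -0.30 and GPX1 at -0.47 were not called.

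In autophagy 5 of 17 genes were higher and none lower (3 and 3 with library size alone). GABARAPL1 differed by 2.62, BNIP3L by 2.29, MAP1LC3B by 1.46 and SQSTM1, the receptor for ubiquitin-tagged cargo and also an NRF2 target, by 2.20. SQSTM1 stood at 5344, 5395 and 5404 CPM with CoCl2, 1214, 1138 and 1169 CPM with OD and 171, 181 and 181 CPM in the controls. WIPI1 was lowest at -0.96. The integrated stress response had 7 of 15 genes higher and none lower (3 and 2 with library size alone), with ATF3 at 1.84, DDIT3 at 1.17, VLDLR highest at 2.16 and CHAC1 lowest at -0.92. Its regulator ATF4 had a log2 fold change of 0.52 and its target TRIB3 of 0.62, both uncalled. In the unfolded protein response of the endoplasmic reticulum 0 of 17 genes were higher and 2 lower (11.8%, against 19.2% of all genes). The median was 0.078 (-0.42 with library size alone). Against the controls the genes of this response had log2 fold changes of -0.34 to 2.67 (median 1.04) with CoCl2. With OD the response ran from -0.38 to 1.93 (median 1.11), and both comparisons share the control libraries. HSPA5, its main chaperone, stood at 1315, 1406 and 1387 CPM with CoCl2, 1497, 1381 and 1438 CPM with OD and 337, 367 and 426 CPM in the controls, a log2 fold change of -0.072. DNAJB9 at 0.87 and HERPUD1 at 0.12 were not called, and SDF2L1 was lower at -1.12.

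Most respiratory chain genes of the mitochondrial genome and of the nucleus had positive log2 fold changes, with a larger median for the mitochondrial genome. Of the 13 respiratory chain genes of mitochondrial DNA 11 were higher with CoCl2 and none lower, with a median of 1.15, but with library size alone the median was 0.65 and 2 were higher. MT-ND5 was highest at 1.57 and MT-ND4 lowest at 0.59. MT-CO1 stood at 23444, 24098 and 25473 CPM with CoCl2, 11812, 11286 and 11872 CPM with OD and 12420.0, 12392 and 10765 CPM in the controls, and MT-ND1 differed by 1.46. Mitochondrial transcripts took 7.89% to 8.33% of all counts in the CoCl2 libraries, 5.97% to 6.30% with OD and 6.41% to 7.63% in the controls; the part of RNA quality in this was not tested. Of 76 nuclear genes of the chain 3 were higher and none lower, although 69 had a positive log2 fold change. At an unadjusted p under 0.05 (edgeR) 64 were higher and 3 lower. Their median of 0.41 turned to -0.089 with library size alone, when 1 was higher and 1 lower. NDUFA4 was highest at 1.69 and NDUFA3 lowest at -0.52, and COX4I1 at 0.50 and SDHB at 0.28 were not called. In the TCA cycle 1 of 13 genes was higher and none lower, the citrate synthase CS was at -0.058 and IDH3A was lowest at -0.43.

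None of 78 cytosolic ribosomal protein genes was called by edgeR or by DESeq2, although 77 had a positive log2 fold change and 76 of these an unadjusted p under 0.05, with a median of 0.64 (0.15 with library size alone), and RPS20 was highest at 0.83. Of 75 mitochondrial ribosomal proteins 3 were higher, with MRPL32 at 1.46 and MRPL12 lowest at -0.98, and the median of 0.34 turned to -0.16 with library size alone. Of 21 genes of the nucleolus 2 were higher and 1, POLR1B at -1.16, lower. NOP2, with few counts, was highest at 1.66, and MYC at -0.75, NCL at 0.27 and NOP56 at -0.026 were not called. Of 20 aminoacyl-tRNA synthetases only HARS1 was called, at 1.56, with WARS1 lowest at -0.72. Of 10 serine and one-carbon enzymes none was higher and 3 were lower, while PHGDH at -0.59, MTHFD2 at -0.44 and SHMT2 at 0.47 were not called.

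In lipid metabolism HILPDA, a HIF target that coats lipid droplets and holds back their breakdown, stood at 143, 143 and 144 CPM with CoCl2 and 13.7, 11.1 and 14.1 CPM with OD (3.46, SE 0.071, FDR 3.51e-24), with OD near the controls at 15.2 ± 1.52 CPM. PLIN2, another droplet coat, differed by 1.35, CPT1A, the gate of fatty acid oxidation, by -0.23 without a call, and G0S2, an inhibitor of lipolysis, was lower at -1.17. Over the whole list of 15 genes 3 were higher and 1 lower (2 and 3 with library size alone). Of 22 sterol genes 5 were higher and none lower (1 and 1 with library size alone), and the median of 0.43 turned to -0.071 with library size alone. INSIG1 differed by 1.60 and HMGCS1 by 1.32. SQLE at -0.0054 was not called, and PMVK was lowest at -0.61. For SQLE both agents lay well above the controls, at 1057, 1085 and 1108 CPM with CoCl2, 1236, 958 and 1067 CPM with OD and 263, 238 and 214 CPM in the controls. Of 9 genes of fatty acid synthesis none was higher and 2 were lower. SCD was at 0.63 and FASN at 0.40, and the regulator MLXIPL, with few counts, was lowest at -2.50.

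Few genes of cell division were called. Lower calls made up 4.35% of the mitosis, 6.06% of the replication and 17.2% of the repair genes. The shares were 19.2% of all genes and 10.2% of those with at least 100 counts. At an unadjusted p under 0.05 (edgeR), 16 of 23 mitosis, 19 of 33 replication and 21 of 29 repair genes were lower, and 3, 9 and 5 higher. Of all 15812 genes, 6417 were lower and 5869 higher at the FDR alone. With library size alone the lower calls numbered 10 in mitosis, 10 in replication and 14 in repair. Of 23 mitosis genes none was higher and 1, the cyclin CCNA2, was lower at -1.31, with a median of -0.41. MKI67, the proliferation antigen, stood at 372, 345 and 395 CPM with CoCl2, 525, 495 and 468 CPM with OD and 731, 721 and 656 CPM in the controls, a log2 fold change of -0.42. CDK1 at -0.60, PLK1 at -0.41 and CCNB1 at -0.11 were not called, and HMMR was highest at 0.41. Of 33 replication genes 1 was higher, ORC1 at 1.48, and 2 lower, with GINS4, which had few counts with CoCl2, at -2.81. MCM2 at -0.16, PCNA at 0.19 and RRM2 at -0.77 were not called. Of 29 repair genes 1, XRCC6 at 1.19, was higher and 5 were lower. BRCA1, which repairs double-strand breaks by recombination, stood at 30.3, 30.7 and 32.8 CPM against 85.7, 84.8 and 84.7 CPM (-1.44, SE 0.060, FDR 1.15e-17) and XRCC2 was lowest at -1.78. Of 19 p53 targets 1, GDF15 at 1.06, was higher and 4 were lower, with DDB2 at -1.86. CDKN1A, the p53-driven brake on the cell cycle, stood at 305, 299 and 289 CPM with CoCl2, 294, 256 and 271 CPM with OD and 65.4, 83.5 and 96.4 CPM in the controls, and MDM2 at 0.99 just missed the limit.

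Growth factor genes held some of the lowest values of the comparison. Of 9 ligands and receptors of the EGFR family 1 was higher and 4 were lower (44.4%, against 19.2% of all genes). EREG, epiregulin, stood at 17.6, 19.4 and 19.2 CPM with CoCl2, 269, 238 and 231 CPM with OD and 225, 273 and 318 CPM in the controls (-3.71, SE 0.100, FDR 7.37e-22). AREG, amphiregulin, stood at 38.2, 41.7 and 42.2 CPM, 332, 282 and 293 CPM and 282, 369 and 403 CPM in the same order (-2.89, SE 0.094, FDR 4.48e-20). For both ligands OD lay near the controls and CoCl2 lay far below. The receptor EGFR was lower too, at 40.6, 43.6 and 45.1 CPM against 121, 112 and 109 CPM (-1.40). EGF went the other way, at 33.9, 36.7 and 36.9 CPM against 3.41, 3.61 and 4.36 CPM (3.24, SE 0.11, FDR 1.85e-19).

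Of 21 immediate early and ERK feedback genes 7 were higher and 1 lower (5 and 4 with library size alone). FOSL1, a partner of JUN in the AP-1 factor, stood at 109, 101 and 103 CPM with CoCl2, 11.6, 8.32 and 9.37 CPM with OD and 12.9, 17.0 and 16.7 CPM in the controls (3.41, SE 0.088, FDR 3.09e-22), and FOS differed by 1.95. EGR1 differed by 1.17, yet both agents lay below the controls, at 12.8, 10.6 and 10.9 CPM with CoCl2, 5.02, 5.59 and 4.68 CPM with OD and 124, 158 and 163 CPM in the controls. DUSP6, a phosphatase that ERK induces against itself, was at -0.68 and not called, and PHLDA1 was lower at -1.43. Of 17 NF-kB targets and chemokines 1 was higher and 5 lower (29.4%, against 19.2% of all genes), with a median of -0.29. CXCL8, the neutrophil chemokine, was the higher one, at 79.1, 91.0 and 76.0 CPM against 35.9, 20.8 and 23.8 CPM (1.61), and TNFAIP2 was lowest, at 84.4, 83.3 and 83.3 CPM with CoCl2, 327, 309 and 314 CPM with OD and 80.6, 80.4 and 78.2 CPM in the controls (-1.92, SE 0.048, FDR 1.59e-22). The inhibitors NFKBIA at 0.66 and TNFAIP3 at -0.26 were not called.

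Wnt targets had 0 of 13 genes higher and 6 lower (46.2%, against 19.2% of all genes and 35.1% of those under 100 counts). DKK1, a secreted Wnt inhibitor, was lowest at -2.34, from 1.12, 0.346 and 0.412 CPM with CoCl2 and 4.04, 2.68 and 2.82 CPM with OD, and both lay far below the controls at 39.4 ± 2.24 CPM. AXIN2, the usual readout of the pathway, was at -0.019 and ASCL2 highest at 0.87, both uncalled. Of 9 BMP targets BMP2 was higher at 1.93 and SMAD6 lower at -1.02, while ID1 at -0.77 was not called. Targets of the aryl hydrocarbon receptor (AhR), which senses planar aromatic compounds, had 0 of 6 genes higher and 3 lower (50.0%). Their median, -1.26, was the lowest of the 49 lists. CYP1B1, a cytochrome P450 under its control (chr2:38066973-38109902, minus strand), stood at 2.39, 1.94 and 1.89 CPM with CoCl2, 27.0, 29.9 and 29.7 CPM with OD and 14.3, 17.0 and 13.5 CPM in the controls (-3.79, SE 0.13, FDR 1.79e-19). CYP1A1 had few counts, 2, 2 and 2 in the CoCl2 libraries and 22, 22 and 41 with OD, against 4, 0 and 1 in the controls. TIPARP, another target, was at 0.78 and not called. Of 9 UDP-glucuronosyltransferases 1, UGT1A6 at 1.30, was higher, and the UGT1A genes share their last exons, so reads between them are uncertain. Of 9 efflux pumps of the ABC list 2 were higher and 2 lower, with ABCC5 at 1.41 and ABCC6, which had few counts, at -2.18. The drug pumps ABCB1 at -0.078 and ABCG2 at -0.11 were not called.

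Enterocyte and goblet genes held more lower than higher calls. Of 15 enterocyte genes none was higher and 6 were lower (40.0%, against 19.2% of all genes and 35.1% of those under 100 counts), with a median of -0.63. CEACAM5, carcinoembryonic antigen, stood at 8.07, 6.91 and 7.57 CPM with CoCl2, 82.4, 74.1 and 74.1 CPM with OD and 9.49, 8.37 and 9.35 CPM in the controls (-3.36, SE 0.081, FDR 8.61e-23). CoCl2 lay close to the controls here and OD stood apart above them. KRT20 at -0.16, FABP1 at -0.53 and SI at 0.063 were not called, nor was MGAM, highest at 1.07 but with low counts. Of 18 mucin and goblet genes 1 was higher and 7 lower (38.9%). The secreted mucin MUC5AC stood at 26.1, 21.2 and 20.1 CPM with CoCl2, 184, 171 and 166 CPM with OD and 139.9, 139 and 117 CPM in the controls (-2.95, SE 0.081, FDR 1.14e-21). MUC13, a mucin of the cell membrane, was higher, at 1124, 1224 and 1124 CPM against 483, 479 and 446 CPM (1.30, SE 0.047, FDR 3.78e-19). MUC1, with few counts, was lower at -1.79, while MUC2, the main gel-forming mucin of the colon, at -0.30 and TFF3 at 0.11 were not called. The 16 tight junction genes were split, with 8 positive and 8 negative log2 fold changes, a median of 0.12, 1 gene higher and 4 lower (25.0%). CLDN4, a sealing claudin, was higher at 1280.2, 1129 and 1099.7 CPM against 288, 294 and 295 CPM (2.00, SE 0.054, FDR 7.54e-22), and CLDN2, a pore-forming one, was lower at -1.35, with CLDN1 at -1.11.

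Class I antigen presentation had 0 of 13 genes higher and 6 lower (46.2%, against 19.2% of all genes). NLRC5, the activator of these genes, stood at 4.63, 8.16 and 4.61 CPM with CoCl2, 20.6, 26.1 and 22.1 CPM with OD and 2.58, 2.52 and 2.14 CPM in the controls (-1.96, SE 0.14, FDR 1.41e-12). The heavy chains HLA-B at 0.35 and HLA-C at 0.78 were not called, and their reads are hard to place since the genes are alike and differ between people. Of 15 genes of the urokinase system and integrins 1 was higher and 4 lower (26.7%). PLAUR, the urokinase receptor, on which the study centred, stood at 100.1, 107 and 105 CPM with CoCl2, 126, 112 and 125 CPM with OD and 34.9, 42.9 and 46.8 CPM in the controls, a log2 fold change of -0.22 that was not called. PLAU, its ligand, was lower at 1.34, 1.73 and 1.65 CPM against 6.93, 5.18 and 6.39 CPM (-1.97, SE 0.19, FDR 5.94e-10), and SERPINB5 was higher at 2.33. ITGA5 and NFATC1, on which the study also centred, had too few counts in HT-29 to be tested. No gene of the EMT list was called among 6 tested, with CDH1 at 0.55, MMP7 at 0.59 and MMP14 at -0.75, and VIM was below the filter.

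Of 17 clock genes 3 were higher and 6 lower (35.3%, against 19.2% of all genes). DBP, an output of the clock, stood at 2.46, 3.11 and 2.47 CPM with CoCl2, 24.5, 26.8 and 27.6 CPM with OD and 6.20, 5.69 and 4.47 CPM in the controls (-3.28, SE 0.13, FDR 3.65e-18). RORA was higher at 2.17, and NR1D1 at -0.37 was not called. Of 17 SR proteins and CLK kinases 3 were higher and none lower (1 and 0 with library size alone), with CLK3 at 2.08, CLK1 at 1.02, SRSF2 at 0.83 and SRSF10 at -0.019. Of 18 small nucleolar RNA host genes 1, SNHG17 at 1.04, was higher and 1, SNHG9 at -1.28, lower, the latter with few counts. GAS5 was at 0.58 and SNHG1 at -0.46.

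Some of the 30 highest and lowest genes belong to none of these lists. DGKG, a diacylglycerol kinase, stood at 21.4, 18 and 19.2 CPM with CoCl2 and 0.724, 0.873 and 1.33 CPM with OD (4.31, SE 0.16, FDR 9.43e-19). MAP1A, a microtubule-associated protein best known from neurons, stood at 377, 373 and 377 CPM with CoCl2, 21.4, 20.5 and 18.7 CPM with OD and 2.07, 2.24 and 1.39 CPM in the controls (4.22, SE 0.064, FDR 1.38e-26). OD also lay above the controls there. CLIC2, a chloride intracellular channel family member, differed by 4.16, SEMA6B, a semaphorin, by 3.78, the pseudogene IGFL1P1, which overlaps an antisense gene, by 3.75 and MLLT11 by 3.74.

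At the low end AHNAK2, a giant scaffold protein (chr14:104937244-104978374, minus strand), stood at 3.21, 3.18 and 3.95 CPM with CoCl2, 102, 79.2 and 91.8 CPM with OD and 4.84, 4.65 and 4.77 CPM in the controls (-4.73, SE 0.11, FDR 3.79e-23). CCL22, a chemokine that attracts regulatory T cells, stood at 0.373, 0.968 and 0.576 CPM with CoCl2, 12.9, 11.1 and 9.79 CPM with OD and 0, 0.109 and 0.113 CPM in the controls (-4.10, SE 0.23, FDR 5.45e-15). PADI2, which turns arginine into citrulline in proteins, stood at 2.39, 1.31 and 2.14 CPM, 29.3, 26.5 and 26.4 CPM and 2.26, 2.41 and 2.44 CPM in that order (-3.83, SE 0.14, FDR 3.24e-19). In these 3 genes OD was the group that stood furthest apart, above both CoCl2 and control. PLEKHG2, a guanine nucleotide exchange factor, stood at 8.59, 7.95 and 6.58 CPM with CoCl2, 72.6, 71.6 and 73.3 CPM with OD and 70.5, 75.4 and 66.5 CPM in the controls (-3.23, SE 0.080, FDR 1.54e-22), and the noncoding LINC00342 stood at 3.81, 3.94 and 4.12 CPM, 38.9, 37.1 and 34.6 CPM and 38.7, 37.7 and 32.1 CPM (-3.22, SE 0.11, FDR 7.43e-20). In these 2 CoCl2 was the group that stood apart, below the others. STRA6, the retinol receptor, differed by -4.26, PLIN4 by -3.76, GPD1, glycerol-3-phosphate dehydrogenase, by -3.52, TLCD2 by -3.51, KLHDC7A by -3.45 and the hexose carrier SLC2A6 by -3.19. PLIN4, DBP and AHNAK2 overlap a gene of the opposite strand, and the use of strand in the counting is not stated.

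By kind of gene, long noncoding RNAs held more lower calls than protein-coding genes, with 337 of 862 (39.1%) lower and 78 higher, against 2076 of 12423 (16.7%) lower and 1213 higher. The noncoding genes had fewer counts, with a median of 26.3 against 441.5. Among genes with at least 100 counts on average, 39 of 172 noncoding genes were lower and 23 higher, and 944 of 9575 protein-coding genes were lower and 1004 higher. Of 368 processed pseudogenes 80 were higher and 14 lower, and reads of such copies may come from their parent genes.

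The same contrast was then set beside Caco-2, where CoCl2 and OD had been given at the same doses for the same time. Cell line and culture state cannot be told apart here, since only Caco-2 had been differentiated. In 1 fit over the 18 mRNA libraries and 17921 genes, 2229 genes were called between CoCl2 and OD in Caco-2 (12.4%), with 1027 higher and 1202 lower, and the median absolute log2 fold change was 0.396 there and 0.654 in HT-29. In 3422 genes (19.1%) the difference between the agents itself differed between the lines by the interaction test, with 936 more positive in HT-29 and 2486 more negative. With library size alone these were 543 and 3447. Of genes called in both lines 968 had the same direction and 103 the opposite one.

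The 5 metallothioneins and HMOX1 were called higher with CoCl2 in both lines. MT2A had a log2 fold change of 5.51 in HT-29 and 5.38 in Caco-2 in this fit, a difference of 0.13 (SE 0.17) that was not called, while MT1E had 4.91 and 5.99, the 1 called difference of the 5, at -1.08 (SE 0.33, FDR 0.00685), which was not called without replicate 1 or 3 of OD in Caco-2 (-0.92 and -0.88) or replicate 2 of OD in HT-29 (-0.93). HMOX1 had 7.31 and 4.66, a difference of 2.65 (SE 0.12, FDR 1.37e-18), with 603 ± 38.5 CPM with CoCl2 and 23.9 ± 3.00 CPM with OD in Caco-2 (mean ± SD, n = 3). Of the 9 hypoxia core genes 4 had a called difference toward higher values in HT-29 and 1, BNIP3 at -1.47 (SE 0.18, FDR 3.58e-08), toward higher values in Caco-2. The members of that list named above were reported by the paper as responding in Caco-2, so they were not chosen apart from that line. Of the 11 genes of blood vessel growth and pH control 4 had a called difference toward HT-29 and none toward Caco-2. PFKFB3 had 4.64 in HT-29 and 1.17 in Caco-2, a difference of 3.47 (SE 0.097, FDR 6.31e-24). PFKFB4 differed between the lines by 3.36, HK2 by 2.95, GBE1 by 2.83 and NDRG1 by 2.65. NDRG1 had a log2 fold change of 0.41 in Caco-2, at 2035 ± 59.0 CPM against 1531 ± 51.9 CPM. GPX3 at 2.45 and GCNT2, a branching enzyme of cell-surface sugars, at 2.7 complete the 8 highest differences among well-counted genes. Of the 20 genes of glucose uptake and glycolysis 13 had a called difference toward higher values in HT-29 and 1 toward higher values in Caco-2. Of the 31 proteasome genes 18 had one toward higher values in HT-29 and none the other way, with 11 called higher in Caco-2 itself. Over all 17921 genes 936 had a called difference toward HT-29 and 2486 toward Caco-2, and 1027 were called higher in Caco-2.

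The opposite end was led by EREG, at -3.81 in HT-29 and 1.32 in Caco-2, a difference of -5.13 (SE 0.16, FDR 1.76e-22). In Caco-2 EREG stood at 25.1 ± 0.744 CPM with CoCl2 and 10.0 ± 0.252 CPM with OD (mean ± SD, n = 3). AREG had -2.99 and 1.37, a difference of -4.36 (SE 0.15, FDR 7.58e-22). Both ligands were thus lower with CoCl2 than with OD in HT-29 and higher in Caco-2. Histone genes were also among the lowest, with H1-2 at a difference of -2.83 and H2BC21 at -2.77. H2BC21 had a log2 fold change of 0.61 in HT-29 and 3.38 in Caco-2. HCAR1, the lactate receptor, differed by -3.44, STEAP2, a metal reductase that overlaps an antisense gene, by -3.26 and GPCPD1, a phosphodiesterase of choline lipids, by -2.83. PLAUR had -0.31 in HT-29 and 1.07 in Caco-2, a difference of -1.38 (SE 0.18, FDR 7.70e-08). Of the 17 NF-kB targets and chemokines 11 had a called difference toward lower values in HT-29 and none the other way. Over all genes 2486 of 17921 had one in that direction. The list medians in this fit were -0.38 in HT-29 and 0.56 in Caco-2. Among the 11, CXCL8 stood in Caco-2 at 0.665 CPM with CoCl2 and 0.0 CPM with OD, and TNFAIP2 at 1.43 and 0.979 CPM. The differences of these genes thus rest on few counts in Caco-2.

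**Figure D5:**
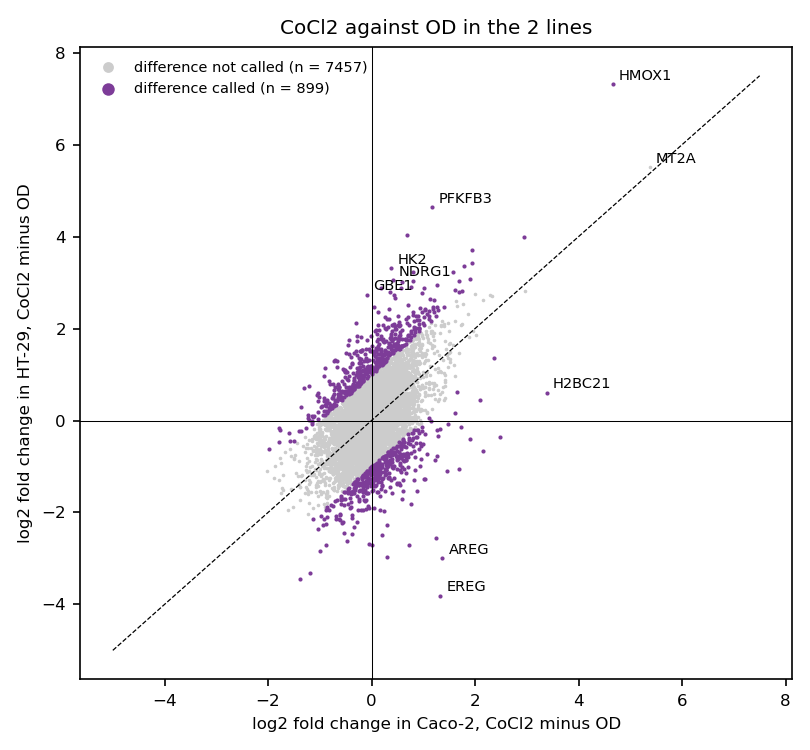
Log2 fold change of CoCl2 minus OD in HT-29 (vertical axis) against that in Caco-2 (horizontal axis) for the 8356 genes with a mean of at least 100 counts in each of the 4 groups, 1 point a gene, from the fit over 18 libraries. Purple points are the 899 genes whose difference between the lines was called, and the dashed line marks equal values. MT2A lies on that line, HMOX1 and PFKFB3 lie above it, and EREG and AREG lie at the lower right.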

How the data were processed

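Total RNA of HT-29 and Caco-2 cells was made into stranded mRNA libraries and read as single ends. For mRNA the authors deposited a table of raw counts for each gene, from reads trimmed with cutadapt 2.10, aligned with STAR 2.7.5b to GRCh38.p13 and counted on GENCODE release 34. The methods state this for Caco-2, and the tool for counting and its strand setting are not given in the sources used here. The authors also deposited log2 values (RPKM plus 1, log2), which served as an alternative. Of the columns that hold samples, 0 were left without a sample.

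Counts were tested with edgeR 4.0.16 in R 4.3.3 (filterByExpr, TMM, quasi-likelihood F test, two-sided, Benjamini-Hochberg over 15812 genes) over the 9 HT-29 mRNA libraries with 1 coefficient per group and the contrast CoCl2 minus OD. The thresholds, FDR under 0.05 and absolute log2 fold change over 1, are those of the study. The study used DESeq2, run here as an alternative (1.42.0) with limma-trend (limma 3.58.1), other scalings, filters and sample sets, a replicate block and leaving out each replicate. Levels are CPM on TMM-scaled library sizes and are not per length, so they are not compared between genes. Only the levels of the cell type markers and the CPM of the floor are on plain library totals. Between the lines, the contrast HT-29 minus Caco-2 was tested over all 18 mRNA libraries. The floor was 3 counts.

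The 49 lists (1008 entries) and the members were chosen with earlier results of these data known. Named are the 15 highest and 15 lowest called genes with at least 100 counts on average and no overlap, fixed anchors and the extremes of each list, the 8 highest and 8 lowest differences between the lines, and PLAUR, ITGA5 and NFATC1. Some genes that the rule names are not reported here. Gene positions are those of GENCODE release 44 on GRCh38, matched by symbol for 87.9% of the genes tested. Promoters are from RefSeq. Replicates spread more than counting error, since chi-square was 1.97 to 6.21 times its degrees of freedom. Each test was tried on simulated counts.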

Additional observations from a re-analysis of the deposited data

Results flagged for a closer look

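In 3422 genes the difference between CoCl2 and OD differed between HT-29 and Caco-2 by the interaction test of edgeR. Of the genes named above with a value of this difference, 18 were among them. CXCL8 and TNFAIP2, named with their levels in Caco-2 only, were also called but are not counted in the 18. The values that follow are the log2 fold change in HT-29 less that in Caco-2, from 3 libraries in each of the 4 groups. More positive in HT-29 were PFKFB3 at 3.47, PFKFB4 at 3.36, HK2 at 2.95, GBE1 at 2.83, GCNT2 at 2.7, HMOX1 at 2.65, NDRG1 at 2.65 and GPX3 at 2.45. More negative in HT-29 were EREG at -5.13, AREG at -4.36, HCAR1 at -3.44, STEAP2 at -3.26, H1-2 at -2.83, GPCPD1 at -2.83, H2BC21 at -2.77, BNIP3 at -1.47, PLAUR at -1.38 and MT1E at -1.08. Each of the 18 kept its direction and, except MT1E, its call under the alternatives tried for this test. MT1E lost its call without replicate 1 (-0.92) or 3 (-0.88) of OD in Caco-2 and without replicate 2 of OD in HT-29 (-0.93). Only Caco-2 had been differentiated, so the line and the culture state cannot be told apart.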

How the results depend on the processing

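Most counts were within 1.5 times of those reported under the 17 alternatives to the comparison in HT-29. With library size alone, the genes higher with CoCl2 numbered 783 and those lower 5279, and the median over all genes was -0.56. With no limit on the fold change 12286 genes were called, 5869 higher and 6417 lower, and 8590 between the lines. With glmTreat against a fold of 2 there were 3022, of which 1865 were lower. When the deposited log2 values were tested with limma-trend there were 1455, 769 higher and 686 lower. The median over all genes also moved by more than the spread of replicates, to -0.040 with RLE size factors, -0.041 with DESeq2, -0.00080 with no filter on low counts, -0.042 with a mean CPM of at least 1, -0.045 with only the 6 libraries compared, -0.16 with all 18 mRNA libraries and -0.016 with limma-trend; the cause was not tested. Leaving out 1 replicate at a time gave 4717 to 4907 genes called, 1689 to 1786 higher and 3024 to 3121 lower, a median of -0.074 to -0.068, and 3249 to 3497 genes between the lines.

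The replicate numbers did not pair the libraries: deviations of same-numbered CoCl2 and OD libraries correlated at -0.076, 0.046 and 0.020 over 10399 genes. A fit with the replicate block called 4726 genes, 1704 higher and 3022 lower, and 3374 between the lines.

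Of the 128 named genes that were called none changed direction where it had a value; 108 had one under each alternative, and 78 of these were called under each. Calls lost by leaving out 1 library were those of GDF15 (0.999 without replicate 1 of CoCl2), SMAD6 (-0.97 without replicate 2 of CoCl2, -0.99 without replicate 1 of OD) and CLK1 (0.97 without replicate 2 of OD). Calls gained were those of SLC2A3 (-1.98 without replicate 1 of CoCl2, -1.04 without replicate 2 of OD), MRPL12 (-1.09 to -1.01 without replicate 1 or 3 of either agent), MDM2 (1.03 without replicate 3 of CoCl2, 1.04 without replicate 1 of OD), ASCL2 (1.02 without replicate 2 of CoCl2) and WIPI1 (-1.0 without replicate 1 of OD). Changes of sign were seen at uncalled genes. With library size alone these were CDKN1A at -0.37, COX4I1 at -0.000285, FASN at -0.10, HERPUD1 at -0.38, HLA-B at -0.15, HMMR at -0.0846, HSF1 at -0.26, NCL at -0.23, PCNA at -0.31, SDHB at -0.21, SHMT2 at -0.030, SI at -0.43, SLC40A1 at -0.36, TFF3 at -0.39 and TFRC at -0.32, and MT2A between the lines at -0.11. With RLE size factors they were AXIN2 at 0.00699, CAT at 0.0147, NOP56 at 0.000348, SQLE at 0.0203 and SRSF10 at 0.00664, and with DESeq2 AXIN2 at 0.00711, CAT at 0.0147, NOP56 at 0.000257, SQLE at 0.0205 and SRSF10 at 0.00680. SI was at -0.0302 with all 18 mRNA libraries and at -0.00613 with limma-trend, and SQLE at 0.00278 with the replicate block. Without 1 replicate, values ran from -0.0914 to 0.0985 for SQLE, -0.0629 to 0.0224 for SRSF10, -0.0406 to 0.0147 for AXIN2, -0.0739 to 0.0146 for NOP56, -0.128 to 0.00547 for ABCB1, -0.0189 to 0.106 for SI and -0.0461 to 0.0165 for CAT. The 10 lists with no gene higher and the 23 with none lower had none by DESeq2 either. Depth limits the low genes: 3 counts, the floor, stood for 0.159 to 0.192 CPM.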
